A study of Mus musculus with 17 samples.

Results

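The transcripts described here are those of 10 neuropeptide genes of the mouse hippocampus, Grp, Cck, Sst, Vip, Tac1, Tac2, Crh, Adcyap1, Cort and Nts. They were taken by gene symbol from the 55471 genes of the count table, and each symbol matched 1 row. The table holds 17 libraries of total hippocampal RNA from male C57BL/6 mice aged 3 to 6 months, 1 mouse per library, in 6 groups of 3 libraries, or 2 in Control PTZ45. All mice, controls included, had received 5 intragastric administrations of tamoxifen (20 mg/mL). CBP-ifKO mice carry Crebbp_flox and Camk2a_creERT2, a tamoxifen-activated Cre recombinase driven by the Camk2a promoter in excitatory forebrain neurons, and express a truncated CBP in those cells, while interneurons and glia keep the intact gene. The label of the controls also names Camk2a_creERT2, whereas the methods of the study describe control littermates without it. Sal mice had no kindling and got saline only. Kindling means that a dose of the convulsant pentylenetetrazol (PTZ), here 45 mg/kg on alternate days, is given repeatedly. Mice are called kindled here by these injections, whatever seizures they had. The study reports that all controls came to have seizures under this schedule, whereas no CBP-ifKO progressed to them. Seizure history thus differed between the genotypes. A week after these injections, PTZ0 mice were given saline and PTZ45 mice were given PTZ at 45 mg/kg, and the tissue was collected 45 min later.

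Neuropeptides are cut from larger precursor proteins, stored in dense-core vesicles and released mostly during strong firing, and they act on G protein-coupled receptors over longer times and distances than fast transmitters. In the hippocampus several of them define classes of GABAergic interneurons, such as the Sst, Vip and Cck cells, while Cck and Adcyap1 are also made by pyramidal neurons or granule cells. CBP is a lysine acetyltransferase named for its binding to CREB, the factor that docks at the cAMP response element (CRE), and neuropeptide genes are classic genes with such an element.

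The labels were checked on the targeted gene first. Crebbp had 1824 to 2429 normalized counts (counts divided by the DESeq2 size factor of the library) in the 8 control libraries and 1061 to 1337 in the 9 CBP-ifKO libraries. Esr1, whose hormone-binding part belongs to creERT2, had 41.0 to 77.8 in controls and 703.3 to 940.7 in CBP-ifKOs, so that no library stood on the side of the other genotype. The libraries held 5831992 to 18735643 counts. A set of 5 libraries, in 5 of the 6 groups, stood apart by choroid plexus RNA, with 9791 to 40500 normalized counts of Ttr against 63.0 to 774.2 in the other 12, and main counts are also given without them. Each sequencing lane named in the labels held 2 groups. Lane 3 held Control Sal and Control PTZ0, lane 4 Control PTZ45 and CBP-ifKO Sal, and lane 5 CBP-ifKO PTZ0 and CBP-ifKO PTZ45, so within each treatment genotype and lane cannot be told apart. The libraries contained the markers of all hippocampal neuron classes examined, with none at 0 among interneuron, dentate granule cell, CA1 and CA3 genes.

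The CRE letters were searched in the promoters of the members because CBP is recruited through CREB. Promoters of 8 members, 250 bases before to 50 bases after the start, came from RefSeq (GRCm38.p6). The set of promoters used here had no entry for Grp and Crh. The full CRE, TGACGTCA, was found on either strand in 1 of these 8 members, Sst, and in 1.79% of all 32851 promoters. Its core, TGACG, which also lies within the full element, was found in 7 of 8 members (all but Tac2) and in 20.8% of all promoters. The stretches below belong to the 3 members with a promoter entry that differed between genotypes over all treatments (Sst, Cck and Tac1) and to Vip, an interneuron peptide whose difference did not pass the test, with the letters of the match in capitals:
Sst, chr16:23890874-23890903, minus strand: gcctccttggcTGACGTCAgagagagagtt
Cck, chr9:121495723-121495752, minus strand: ctgctggactgCGTCAgcactgggtaaaca
Tac1, chr6:7555007-7555036, plus strand: ctctacaggctCGTCAcgcctgagataaat
Vip, chr10:5639128-5639157, plus strand: gatcactactgTGACGtctttcggggagcc

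The match began 48 bases before the start in Sst, 47 in Cck, 43 in Tac1 and 79 in Vip. Tac1 has another match of the core, 197 bases before the start, which is not printed. In Cck and Tac1 the printed strand carries the reverse complement of the core. The AP-1 letters TGANTCA were found in Nts only among these 8 members and in 7.81% of all promoters. The letters are given as a description of the sequence and do not mark bound sites.

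The 10 transcripts spanned a wide range of levels. Per kb of exon length, the 8 control libraries had a mean of 1361 ± 89.7 normalized counts (SD) of Cck and 1324 ± 84.5 of Sst, whose ranges overlapped. Grp followed with 132.2 ± 14.7, Nts with 75.5 ± 14.2 and Vip with 64.6 ± 6.48. The ranges of Sst and Grp did not overlap, nor did those of Grp and Nts, whereas those of Nts and Vip did. Cort had 46.6 ± 8.19, Tac1 23.6 ± 3.77 and Adcyap1 21.96 ± 3.71, and Tac2 and Crh were lowest with 12.8 ± 3.38 and 8.82 ± 1.73. In this lower part of the order Vip and Cort, and Cort and Tac1, did not overlap, while Tac1, Adcyap1, Tac2 and Crh each overlapped with the next. Cck and Sst were close in controls. The level of Cck divided by that of Sst, both per kb and within a library, was 1.03 ± 0.0485 (SD of 8 controls), above 1 in 5 of 8 libraries, and 0.809 ± 0.0957 (SD of 9 CBP-ifKOs), above 1 in 0 of 9. This ratio was picked once its values had been seen, and it has no test.

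**Figure D1:**
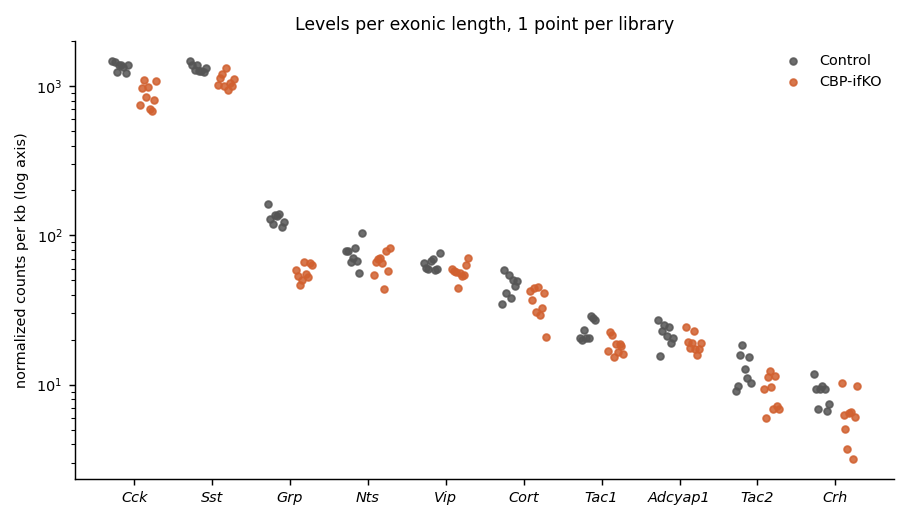
Normalized counts per kb of exon length (log axis) of the 10 neuropeptide transcripts, ordered by the control mean, with 1 point per library (8 Control in grey, 9 CBP-ifKO in orange). Cck and Sst lie near 1361 and 1324 per kb in controls, about an order of magnitude above Grp at 132.2, and the 2 genotypes are fully apart in Grp and Cck.

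The first comparison asked which of these transcripts differed between the genotypes, over all treatments (8 control and 9 CBP-ifKO libraries, treatment as a term). Grp, Cck, Sst and Tac1 were lower in CBP-ifKOs, by most in Grp, at 43.0% ± 5.24 (SD, n = 9) of the control mean. All 10 log2 fold changes were below 0, with a median of -0.36, against a median of 0.01 over all genes with an adjusted p. DESeq2 called 4 of 10 members (adjusted p under 0.05), all lower, where it called 19.3% of all 18682 genes in either direction and 11.5% lower. Bulk RNA does not tell fewer cells of a type from less RNA per cell.

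Grp (ENSMUSG00000024517, chromosome 18, 65872820 to 65886596 in GRCm38, plus strand) encodes gastrin-releasing peptide, a bombesin-like peptide. The Control Sal libraries had 238.4, 190.8 and 177.2 normalized counts and the CBP-ifKO Sal libraries 86.5, 78.8 and 68.7. In PTZ0 the values were 201.0, 197.9 and 206.6 in controls against 74.3, 97.4 and 81.2 in CBP-ifKOs, and in PTZ45 they were 168.0 and 181.4 against 77.8, 96.96 and 93.2. The lowest control library thus stood well above the highest CBP-ifKO library, in each treatment and overall. Across treatments Grp differed by -1.22 on the log2 scale with an SE of 0.10 (DESeq2, adjusted p 4.99e-34). Within lane 4, which holds both genotypes but under different treatments, the 2 Control PTZ45 libraries (168.0 and 181.4) also exceeded the 3 CBP-ifKO Sal libraries (68.7 to 86.5).

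Cck (ENSMUSG00000032532, chromosome 9, 121489824 to 121495694, minus strand) encodes cholecystokinin, a peptide of basket-type interneurons and of pyramidal neurons. In Sal the controls had 1911, 1907 and 1625 normalized counts and the CBP-ifKOs 979, 1270 and 1431. In PTZ0 the values were 1808, 1812 and 1752 against 1107, 1296 and 922.6, and in PTZ45 1590 and 1799 against 891.6, 1060 and 1405. Control libraries stayed above all CBP-ifKO libraries here too, but the CBP-ifKO values were more spread, with an SD of 11.6% of the control mean around a mean of 64.8% (n = 9). Cck differed by -0.62 on the log2 scale with an SE of 0.09 (DESeq2, adjusted p 3.69e-11). Of the 10 members, these 2, Grp and Cck, had no overlap between the genotypes over all libraries, with the CBP-ifKO libraries below. The same held for 2.87% of the 13041 genes that averaged 50 normalized counts or more. Both genes are in a list that the study drew partly from these Sal libraries, so their direction is not independent evidence.

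Sst (ENSMUSG00000004366, chromosome 16, 23889573 to 23890958, minus strand) encodes somatostatin, the inhibitory peptide of dendrite-targeting interneurons. Controls had 1067, 994.8 and 923.0 normalized counts in Sal, 998.1, 905.4 and 904.6 in PTZ0, and 893.2 and 948.5 in PTZ45. The CBP-ifKO libraries had 732.8, 817.6 and 870.5 in Sal, 725.6, 959.5 and 674.2 in PTZ0, and 752.8, 718.7 and 805.3 in PTZ45. Only CBP-ifKO PTZ0 replicate 2, at 959.5, reached into the control range of 893.2 to 1067, and the other 8 CBP-ifKO libraries lay below it. Sst differed by -0.28 on the log2 scale with an SE of 0.06 (DESeq2, adjusted p 0.000157), and the CBP-ifKO mean was 82.2% ± 9.31 (SD, n = 9) of the control mean. Cort encodes cortistatin, a somatostatin-like peptide that shares its receptors. It had 23.4 to 39.4 normalized counts in controls and 14.1 to 30.6 in CBP-ifKOs, and its log2 fold change of -0.34 (95% interval -0.70 to 0.02) did not pass (adjusted p 0.191).

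**Figure D2:**
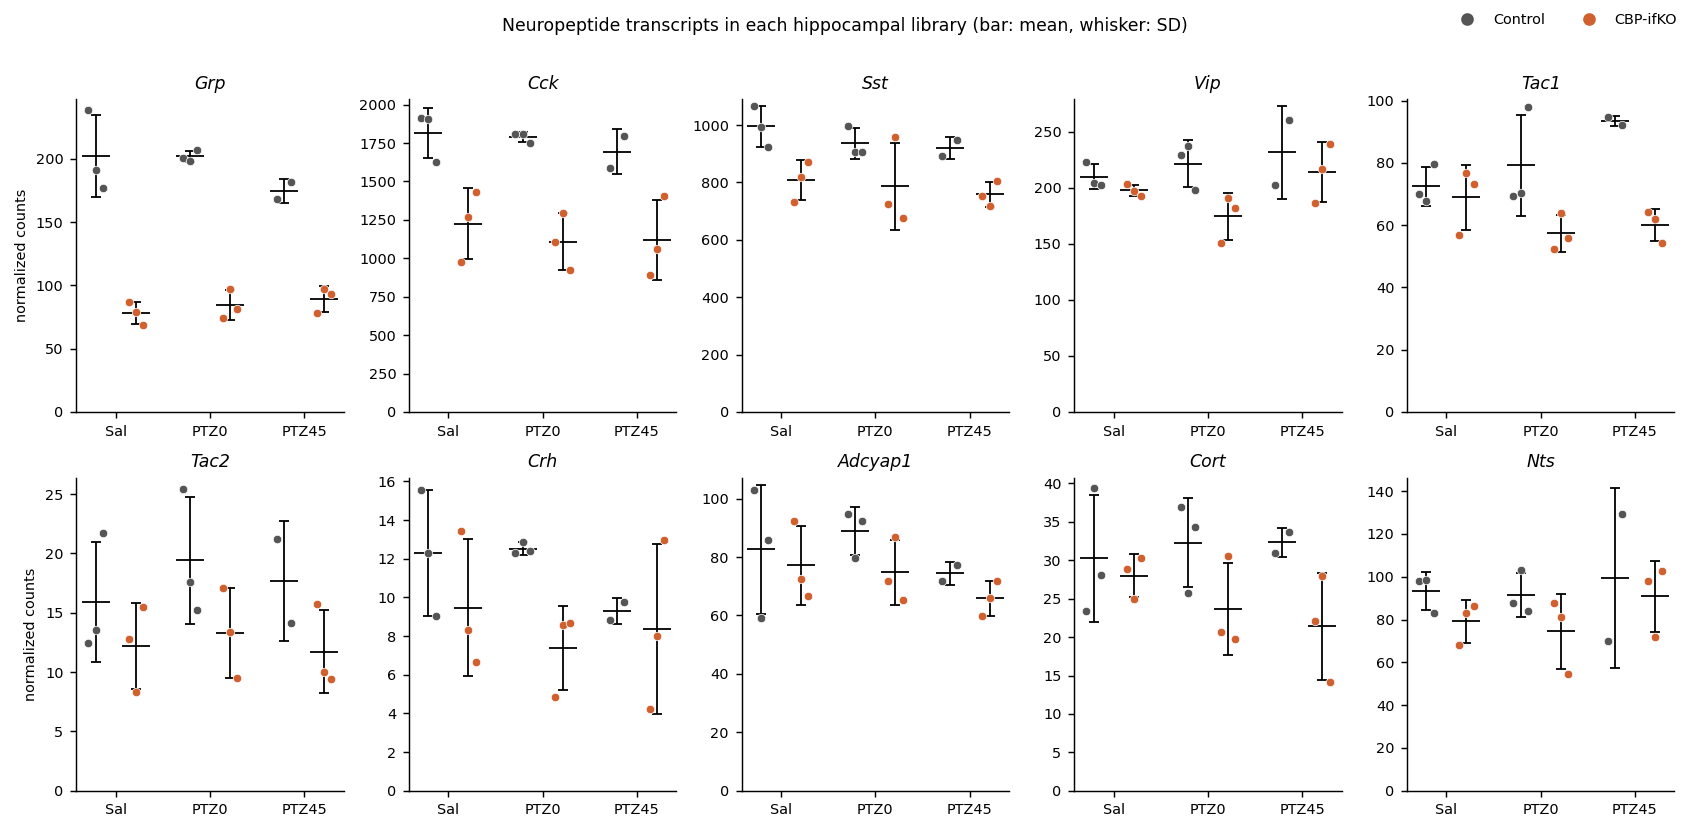
Normalized counts of each neuropeptide transcript in every library, by treatment (Sal, PTZ0, PTZ45) and genotype (Control grey, CBP-ifKO orange), with horizontal bars at the group mean and whiskers of 1 SD (n = 3, or 2 in Control PTZ45). Grp runs from 168.0 to 238.4 in controls and from 68.7 to 97.4 in CBP-ifKOs, whereas over all libraries the genotypes overlap in the 8 members other than Grp and Cck.

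The tachykinins were the next group. Tac1 (ENSMUSG00000061762, chromosome 6, 7554879 to 7565834, plus strand) encodes the precursor of substance P and neurokinin A. Its controls had 70.1, 67.7 and 79.6 normalized counts in Sal, 69.4, 70.3 and 98.1 in PTZ0, and 94.6 and 92.4 in PTZ45. The CBP-ifKOs had 57.0, 76.8 and 73.2 in Sal, 52.4, 64.0 and 56.0 in PTZ0, and 64.1, 62.0 and 54.2 in PTZ45, so that the genotypes overlapped in Sal and not in the kindled groups. Across treatments Tac1 differed by -0.39 on the log2 scale with an SE of 0.12 (DESeq2, adjusted p 0.00911). Without the 5 libraries high in choroid plexus genes the value was -0.39 (SE 0.15) and the call was lost (adjusted p 0.0802). In that fit 3 of the 10 members were called, all lower, where DESeq2 called 1245 of all 15846 genes lower. Tac2, the precursor of neurokinin B, had 12.5 to 25.5 normalized counts in controls and 8.30 to 17.04 in CBP-ifKOs. Its log2 fold change of -0.49 had a 95% interval of -0.96 to -0.02 and an adjusted p of 0.149, at a level too low for a narrower estimate.

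The remaining members did not pass the test over all treatments. Vip, the peptide of interneurons that inhibit other interneurons, had 198.0 to 260.8 normalized counts in controls and 151.0 to 239.3 in CBP-ifKOs, a log2 difference of -0.18 with an SE of 0.08 (DESeq2, adjusted p 0.0879). It was called without Control PTZ45 replicate 1 (adjusted p 0.0301) or without CBP-ifKO PTZ45 replicate 3 (adjusted p 0.0443). Adcyap1, which encodes PACAP, a relative of Vip that raises cAMP, had 59.1 to 102.9 in controls and 59.9 to 92.2 in CBP-ifKOs, with a log2 fold change of -0.18 (95% interval -0.41 to 0.05, adjusted p 0.312). Nts, the neurotensin precursor, had 69.9 to 129.3 in controls and 54.4 to 102.6 in CBP-ifKOs, a log2 fold change of -0.23 (95% interval -0.49 to 0.02, adjusted p 0.212). The Nts call was gained (adjusted p 0.0384) without Control PTZ45 replicate 1, the lowest control library for this gene, and without the libraries high in choroid plexus genes the value was -0.03 (SE 0.14). Crh, corticotropin-releasing hormone, was the least abundant, with 8.84 to 15.6 in controls and 4.21 to 13.4 in CBP-ifKOs, and its log2 fold change of -0.43 had an interval of -0.998 to 0.14 (adjusted p 0.33).

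Within single treatments fewer members passed, and the log2 fold change was below 0 for all 10 in Sal, PTZ0 and PTZ45. Leaving libraries out turned the sign of uncalled members, namely Cort, Adcyap1 or Tac1 in Sal and Vip, Nts or Crh in PTZ45, with 8 or 9 of 10 then below 0. The groups did not overlap, with CBP-ifKO lower, in 3 of 10 members in Sal, 5 in PTZ0 and 5 in PTZ45. Among all genes averaging 50 normalized counts or more these shares were 11.7%, 15% and 19%. They do not cover Crh, among the 5 in PTZ0, or Cort, among the 5 in PTZ45, which both averaged below 50. In Sal, Grp (log2 -1.38 ± 0.20 SE, adjusted p 3.93e-09) and Cck (log2 -0.57 ± 0.12 SE, adjusted p 0.000563) were called, 2 of 10 members where DESeq2 called 2.04% of all genes. The Cck call in Sal was lost without the libraries high in choroid plexus genes, where the difference was -0.39 (SE 0.14, adjusted p 0.388, 2 libraries each). In PTZ0 the same 2 genes were called, Grp at -1.25 (SE 0.18, adjusted p 3.51e-10) and Cck at -0.69 (SE 0.10, adjusted p 3.14e-10), where 6.68% of all genes were called. Grp alone was called in PTZ45, at -0.96 (SE 0.23, adjusted p 0.00172), against 3.07% of all genes. Without the libraries high in choroid plexus genes Grp and Cck were called in PTZ0 and Grp in PTZ45. In PTZ45 with all libraries Cck stood at -0.60 on the log2 scale (SE 0.26, DESeq2 adjusted p 0.28) although the 2 control libraries lay above the 3 CBP-ifKO libraries. Without CBP-ifKO PTZ45 replicate 3, the highest of these 3, Cck was called at -0.79 (SE 0.12, adjusted p 6.92e-08). The Grp call in PTZ45 was lost without Control PTZ45 replicate 1 (adjusted p 0.15), Control PTZ45 replicate 2 (0.241) or CBP-ifKO PTZ45 replicate 1 (0.0581), with log2 fold changes from -1.02 to -0.87. With the replicate number as a block Grp kept a similar difference in PTZ45 with a larger error (-1.005, SE 0.39) and was not called (adjusted p 0.541). Cck was called there (-0.80, SE 0.16, adjusted p 0.00016). In PTZ45 only CBP-ifKOs have a replicate 3, so the block takes up that library. The Cck call with the block is therefore not separate from the fit that leaves this library out.

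Sst was not called within a treatment, with adjusted p-values of 0.104 in Sal, 0.185 in PTZ0 and 0.206 in PTZ45 and log2 fold changes of -0.31, -0.25 and -0.28. It was called without CBP-ifKO Sal replicate 3 in Sal (-0.38, adjusted p 0.0219) and without CBP-ifKO PTZ0 replicate 2, the library noted above, in PTZ0 (-0.43, adjusted p 0.000477). Tac1 had log2 fold changes of -0.10 in Sal, -0.46 in PTZ0 and -0.63 in PTZ45, with adjusted p-values of 0.958, 0.319 and 0.313.

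**Figure D3:**
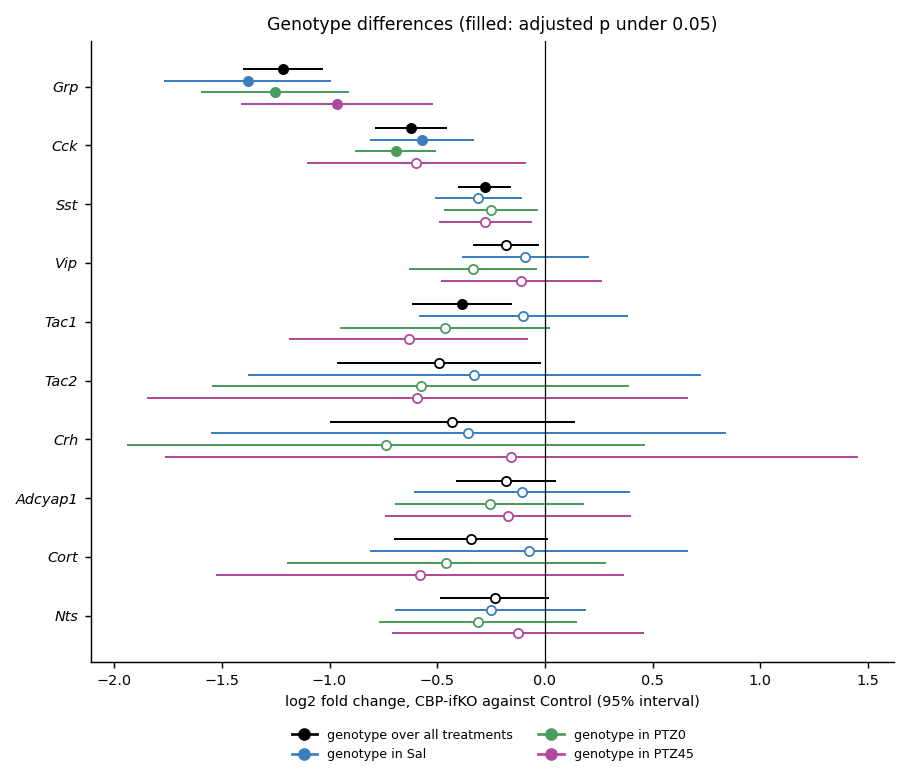
Log2 fold change of each neuropeptide transcript in CBP-ifKO against Control libraries, over all treatments (black) and within Sal (blue), PTZ0 (green) and PTZ45 (magenta), with 95% intervals and filled points where the adjusted p of DESeq2 is under 0.05. All points lie left of 0, from -1.38 for Grp in Sal to -0.07 for Cort in Sal, and the intervals of the low transcripts Tac2 and Crh are the widest.

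Lane could be included only in the fit over all treatments, where it assumes the same genotype difference in every treatment. With lane as a term Grp was the only member called, at -1.09 (SE 0.30, adjusted p 0.0432), and 3 genes were called higher and 128 lower of all genes. Cck, Sst and Tac1 had log2 fold changes of -0.47 (SE 0.32), -0.33 (SE 0.20) and -0.28 (SE 0.38), and Vip and Crh turned to 0.14 (SE 0.25) and 0.22 (SE 0.99). Each of these standard errors was more than 3 times that without the term.

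Markers of cell types were compared between genotypes in the same fit, where 11.5% of all genes were called lower. All 5 CA1 pyramidal cell markers were called lower over all treatments, and their summed level was 4015 to 4855 normalized counts in controls and 2779 to 3602 in CBP-ifKOs, with no overlap. Of 5 CA3 markers, 2 were called lower (summed level 2298 to 2759 against 1782 to 2324), and of 5 dentate granule cell markers 2 were called lower and 1 higher (4041 to 4923 against 4378 to 4824). Of 10 interneuron markers 4 were called lower, namely Calb2 (-0.68, SE 0.10), Lamp5 (-0.61, SE 0.10), Gad1 (-0.14, SE 0.03) and Reln (-0.12, SE 0.04), and the list summed to 11660 to 12600 in controls and 10670 to 11810 in CBP-ifKOs. Gad2, Pvalb and Lhx6 were among those that did not pass. Markers of regions next to the hippocampus that are rich in some of these peptides had 1 of 6 (cortex or subiculum), 1 of 6 (thalamus and habenula) and 2 of 5 genes (striatum) called lower, and 1 striatal gene called higher, and 1 of 6 is near the share over all genes. The cortex or subiculum sum was 3207 to 4005 in controls and 2686 to 4111 in CBP-ifKOs, the thalamus and habenula sum 934.9 to 1135 and 814.7 to 941.7, and the striatum sum 504.5 to 630.1 and 433.9 to 653.4. Chrnb4, a habenula marker, was at 0 in some libraries. Astrocyte markers had 2 of 5 genes lower (14220 to 15670 against 12650 to 15480). No oligodendrocyte marker passed, with adjusted p-values from 0.102 to 0.604 (24620 to 32170 against 23200 to 32300). Of the choroid plexus markers only Kl had an adjusted p (0.21), and their sum was 400.5 to 23940 in controls and 408.6 to 43380 in CBP-ifKOs. The part of these markers in the peptide results was not tested.

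The next comparisons asked whether kindling, or the last PTZ injection, changed these transcripts. None of the 10 members was called by DESeq2 or by the quasi-likelihood test of edgeR in any of these comparisons, and 0 had an unadjusted p under 0.05 in DESeq2. Fos, the immediate early gene used as a check of the injection, had 28.1, 28.3 and 62.4 normalized counts in Control Sal and 2915 and 2483 in Control PTZ45, and 26.9, 33.2 and 34.0 in CBP-ifKO Sal against 163.0, 249.9 and 287.7 in CBP-ifKO PTZ45. All genes together had few calls. PTZ45 against Sal called 1.17% of genes in controls and 0.294% in CBP-ifKOs, and PTZ45 against PTZ0 called 1.25% and 0.0872%. PTZ0 against Sal called 0.00843% and 0.0112%. These comparisons share libraries within a genotype.

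Sal and PTZ45 libraries lay in different lanes, 3 and 4 in controls and 4 and 5 in CBP-ifKOs. A lane difference cannot be told apart from an effect of PTZ here. The intervals thus cover the scatter between libraries only and do not bound a missed effect of PTZ. In controls PTZ45 against Sal gave log2 fold changes of -0.10 for Cck (95% interval -0.30 to 0.10) and -0.12 for Sst (-0.32 to 0.09), and in CBP-ifKOs -0.13 for Cck (-0.62 to 0.35) and -0.09 for Sst (-0.30 to 0.12). Grp had -0.22 (-0.59 to 0.15) in controls and 0.19 (-0.27 to 0.65) in CBP-ifKOs, and Vip 0.13 (-0.21 to 0.48) and 0.11 (-0.21 to 0.43). For Crh the intervals were wide, -1.75 to 0.92 in controls and -1.61 to 1.18 in CBP-ifKOs, so a 2-fold fall lies within both and was not detectable at this depth. After the correction for GC content the signs of Cck, Sst, Vip and Nts in controls turned, to 0.04, 0.001, -0.003 and -0.05 on the log2 scale, none of them called.

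Tac1 was the 1 member of 10 whose Sal and PTZ45 groups did not overlap in controls, where 17.8% of genes averaging 50 normalized counts or more did not overlap with PTZ45 higher. Its 2 Control PTZ45 libraries (94.6 and 92.4 normalized counts) lay above the 3 Control Sal libraries (67.7 to 79.6), or 0.36 higher on the log2 scale (SE 0.26, DESeq2 adjusted p 0.844), while Control PTZ0 replicate 3 was as high without the last injection (98.1). In CBP-ifKOs the values of PTZ45 (54.2 to 64.1) overlapped with those of Sal (57.0 to 76.8), at -0.18 on the log2 scale (SE 0.27, DESeq2 adjusted p 1). A genotype by PTZ45 interaction was fitted over the 11 Sal and PTZ45 libraries, where 0.329% of all genes were called. Sal and PTZ45 lay in different lanes in this fit too, and it had no lane term. Among the 10 members 0 were called by DESeq2 or edgeR and 0 had an unadjusted p under 0.05 in DESeq2. The interaction of Tac1 was -0.53 (SE 0.33, 95% interval -1.19 to 0.12) and that of Grp 0.41 (SE 0.28, 95% interval -0.13 to 0.95), with an adjusted p of 1 each.

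**Figure D4:**
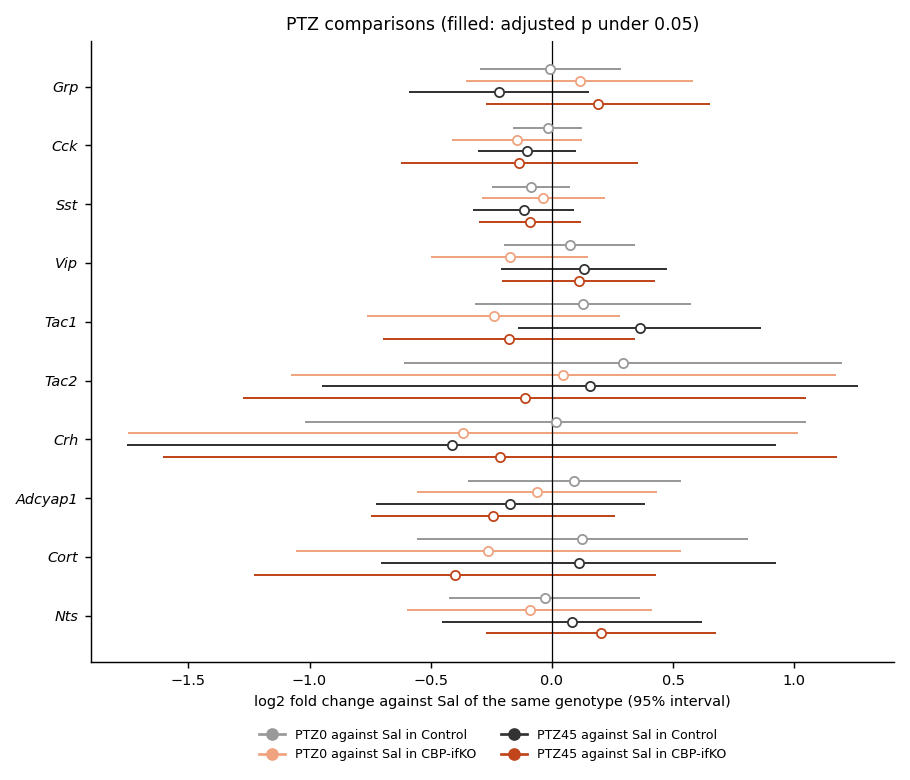
Log2 fold change of each neuropeptide transcript against Sal mice of the same genotype, for PTZ0 (light) and PTZ45 (dark) in Control (grey and black) and CBP-ifKO (orange) mice, with 95% intervals. No point is filled, as none of the 10 transcripts passed the test in these 4 comparisons, and the points run from -0.41 (Crh, PTZ45 in controls) to 0.36 (Tac1, PTZ45 in controls).

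Kindling without a last PTZ dose was best measured in controls, where PTZ0 and Sal shared lane 3. The log2 fold changes there ran from -0.09 (Sst, 95% interval -0.25 to 0.07) to 0.29 (Tac2, -0.61 to 1.20), with Cck at -0.02 (-0.16 to 0.12) and Grp at -0.01 (-0.30 to 0.28). In CBP-ifKOs, across lanes 4 and 5, they ran from -0.37 (Crh, -1.75 to 1.01) to 0.11 (Grp, -0.35 to 0.58). Within lane 5, PTZ45 against PTZ0 in CBP-ifKOs gave the largest difference for Nts, at 0.30 (-0.19 to 0.79), followed by Vip at 0.29 (-0.04 to 0.61). In controls the same contrast crosses lanes 3 and 4. Its largest difference was that of Crh, -0.43 (-1.76 to 0.89), followed by Adcyap1 at -0.27 (-0.77 to 0.23), Tac1 at 0.23 (-0.28 to 0.75) and Grp at -0.21 (-0.55 to 0.12). In Grp, Adcyap1 and Crh both PTZ45 libraries lay below the 3 PTZ0 libraries, 3 of 10 members beside 16.8% of genes averaging 50 or more. Crh itself averaged below 50, so that share does not cover it. Vip in CBP-ifKOs was lower in each PTZ0 library (151.0 to 190.9) than in Sal (192.9 to 203.1), at -0.17 on the log2 scale (-0.50 to 0.15). It was the 1 member of 10 without overlap in that comparison, beside 2.32% of genes.

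The receptors and binding proteins of these peptides, a list of 20 genes, had more calls between genotypes than between treatments. Over all treatments DESeq2 called 10 lower and 0 higher in CBP-ifKOs, of 16 with an adjusted p, beside the 11.5% of all genes called lower. The quasi-likelihood test of edgeR called 11 of the list, all lower. The median log2 fold change of the list was -0.35. Somatostatin receptors made up 4 of the 10. Sstr3, the receptor of neuronal primary cilia, had 345.8 to 458.0 normalized counts in controls and 238.3 to 338.4 in CBP-ifKOs (log2 -0.56 ± 0.08 SE, adjusted p 4.49e-11), and Sstr1 had 90.2 to 157.1 and 63.1 to 86.0 (log2 -0.77 ± 0.12 SE, adjusted p 4.47e-09). Both had no overlap between genotypes, and both are in the list the study drew partly from the Sal libraries. Sstr2 (log2 -0.54 ± 0.13 SE, adjusted p 0.000364) and Sstr4 (log2 -0.24 ± 0.08 SE, adjusted p 0.0157) were also lower. The call of Sstr4 was lost in 6 of 24 alternatives. They included leaving out replicate 3 of Control Sal, replicate 1 of CBP-ifKO Sal and replicate 3 of CBP-ifKO PTZ0.

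Among the other receptors, Cckbr, the brain receptor for cholecystokinin, had 55.2 to 98.9 normalized counts in controls and 31.8 to 68.5 in CBP-ifKOs (log2 -0.85 ± 0.15 SE, adjusted p 6.89e-07). Ntsr1, the high-affinity neurotensin receptor, had 23.9 to 36.3 and 8.41 to 31.1 (log2 -0.87 ± 0.20 SE, adjusted p 0.000171). Vipr1, a receptor for Vip and PACAP, had 259.5 to 332.5 and 195.9 to 248.4 with no overlap (log2 -0.36 ± 0.07 SE, adjusted p 1.55e-06). Crhbp, a secreted protein that sequesters Crh, had 221.5 to 267.6 and 146.1 to 226.3 (log2 -0.43 ± 0.07 SE, adjusted p 4.35e-07), and the receptor Crhr1 had 80.5 to 125.5 and 60.1 to 103.5 (log2 -0.33 ± 0.11 SE, adjusted p 0.0126). The Crhr1 call was lost without CBP-ifKO PTZ0 replicate 3. Sort1, a sorting receptor that binds neurotensin, had 9058 to 9769 and 7368 to 8790 with no overlap (log2 -0.21 ± 0.03 SE, adjusted p 4.55e-08). With lane as a term 0 of the 20 genes were called by DESeq2, 5 had an unadjusted p under 0.05, and the standard errors were larger. Of the 10 receptors called without the term, 9 stayed below 0, from -1.56 (SE 0.47) for Cckbr to -0.27 (SE 0.11) for Sort1, and Crhr1 turned to 0.12 (SE 0.34). Without the libraries high in choroid plexus genes 8 of the 10 were called, and Sstr4 and Crhr1 were not.

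Several receptors were close to equal between genotypes. Adcyap1r1, the PACAP receptor, was at 1776 ± 89.5 (SD of 8 controls) and 1778 ± 96.7 normalized counts (SD of 9 CBP-ifKOs), a log2 fold change of 0.00 with a 95% interval of -0.07 to 0.08. Ntsr2, the neurotensin receptor of glia, had a log2 fold change of -0.04 (-0.14 to 0.07). Grpr, the receptor of the peptide with the largest difference, had 23.5 ± 7.75 and 24.7 ± 5.38, a log2 fold change of 0.07 (-0.33 to 0.47). The tachykinin receptors Tacr1 (-0.62, SE 0.27) and Tacr3 (-0.31, SE 0.17) did not pass in DESeq2, with adjusted p-values of 0.0883 and 0.196. Within treatments the receptors called lower by DESeq2 were Sstr1 and Sstr3 in Sal, Sstr1, Sstr3, Crhbp and Sort1 in PTZ0, and Cckbr in PTZ45. Of the 20 genes 13, 11 and 13 had an adjusted p there. DESeq2 called 2.04%, 6.68% and 3.07% of all genes in these 3 fits, in either direction. The quasi-likelihood test of edgeR called 1, 3 and 2 of the 20 genes. In the PTZ comparisons and in the interaction 0 of the 20 genes were called by DESeq2 or edgeR, with at most 1 at an unadjusted p under 0.05 in each.

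**Figure D5:**
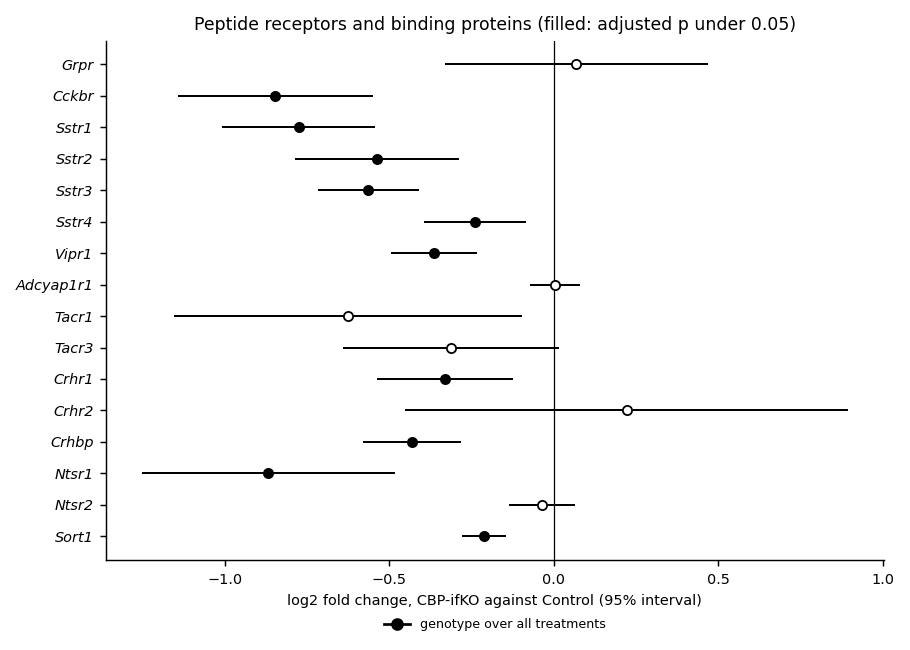
Log2 fold change over all treatments, CBP-ifKO against Control, of the 16 peptide receptors and binding proteins with an adjusted p, with 95% intervals and filled points where the adjusted p of DESeq2 is under 0.05. The 10 filled points lie between -0.87 (Ntsr1) and -0.21 (Sort1), and Adcyap1r1 sits at 0.00 with the narrow interval of an abundant transcript.

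The members differed in how they varied together. Over the 17 libraries, which share the genotype difference, Pearson r of log2 values was 0.90 between Cck and Sst, 0.86 between Grp and Cck and 0.78 between Grp and Sst. After the group means were removed, r was 0.75 between Cck and Sst, 0.24 between Grp and Cck and 0.38 between Grp and Sst. Cck and Sst thus also rose and fell together among mice of a group, in libraries that share depth and tissue dissection, and Grp did so less closely with either. Adcyap1 and Nts were nearly unrelated, with 0.05 over all libraries and -0.00 within groups. The SD of log2 values within groups was 0.14 for Sst, 0.15 for Vip, 0.16 for Grp, 0.18 for Tac1, 0.22 for Cck, 0.23 for Adcyap1 and 0.30 for Nts, against a median of 0.13 over 13041 genes.

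For the 7 members that averaged 50 normalized counts or more, the genes with the most similar profile over the 17 libraries were named by the highest r, as a description of libraries that share genotype, lane and depth differences. Grp was most like Wnt4 (0.98), Igfbp4 (0.96) and Dpysl3 (0.96), and within groups r was 0.79, 0.51 and 0.24. Cck was most like Efna3 (0.97), Ubl3 (0.96) and Thy1 (0.96), with 0.93, 0.90 and 0.90 within groups. Sst was most like Park7 (0.94), Neu4 (0.92) and Yaf2 (0.92), with 0.90, 0.83 and 0.93 within groups. Vip was most like S100a1 (0.86), Anxa5 (0.83) and Mylip (0.82), and Tac1 was most like Zdhhc23 (0.87), Plekha5 (0.85) and Tacc1 (0.83). Nts was most like Ppp2r5c (0.83), Ccng1 (0.80) and Gucy1b1 (0.80), and Adcyap1 had the weakest partners, Col6a1 (0.71), Acot2 (0.71) and Serpind1 (0.69).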

How the data were processed

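The authors deposited raw counts per gene and had not normalized them. By their methods and processing notes, single-end 50 bp reads were trimmed with Trim Galore 0.6.4, aligned with STAR 2.6.1 to GRCm38, kept above a mapping quality of 10 and counted on Ensembl exons with Rsubread. Strand use is not given in the sources used here, and no exon of the 10 members overlaps another gene in GENCODE M21. Of 18 count columns, 1 matched no sample and was not used.

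The Wald test of DESeq2 1.42.0 (R 4.3.3), two-sided, was fitted on all genes with at least 1 count in the libraries compared, with Benjamini-Hochberg adjustment and independent filtering. A gene was called at an adjusted p under 0.05. Intervals are 1.96 SE on either side. Fits were tested on simulated counts. Alternatives were edgeR 4.0.16, TMM size factors, keeping genes with 10 counts or more in 2 libraries or more, 1 fit of all 17 libraries or lane as a term, the replicate number as a block, a GC correction (loess, span 0.5) and leaving out each library. Leaving out libraries with over 5000 normalized counts of Ttr was added after seeing the data.

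The text names all members, the receptors called by DESeq2 over all treatments, and the 3 genes of highest r for each member with a mean of at least 50. Other receptors were named after their values were seen. The members and lists were chosen with earlier results of these data known. The study lists Grp, Cck, Sstr1 and Sstr3 among genes it picked partly on the Sal libraries, so their direction is not independent evidence.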

Additional observations from a re-analysis of the deposited data

Results flagged for a closer look

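Crh was picked out by the signs of its PTZ0 values against Sal in each genotype. On the scale of log2(normalized count + 1), all 3 Control PTZ0 libraries lay above the mean of the Control Sal log values, by 0.05 on average, and all 3 CBP-ifKO PTZ0 libraries lay below that of CBP-ifKO Sal (-0.31), a difference of -0.36 that was not tested. The fitted log2 fold changes were 0.02 (95% interval -1.02 to 1.05) in controls and -0.37 (-1.75 to 1.01) in CBP-ifKOs, so neither group had a measurable direction. Without logs, 1 control library (12.29 normalized counts) lay below the Control Sal mean (12.31). Crh had fewer than 16 normalized counts in every library. Over the 20 sets formed by 10 members and 2 genotypes (8 and 9 libraries) no library stood apart from the others of its genotype by Dixon's criterion, by which chance marks about 1 in 20 sets.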

How the results depend on the processing

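The number of members called kept within 1.5 times its value in most alternatives. Over all treatments it was 4, and 1 (Grp) with lane as a term. In Sal it was 2, and 1 (Grp) in edgeR (Cck adjusted p 0.0633) and without the libraries high in choroid plexus genes. In PTZ0 it was 2, and 1 (Cck) with the replicate number as a block, where Grp had no adjusted p. In PTZ45 it was 1, and 2 (Grp and Cck) in edgeR, where the adjusted p of Cck was 0.0281, and 0 to 2 when 1 library was left out. The cause was not tested, beyond the fewer libraries in the fits that leave some out. The replicate numbers did not pair the libraries by the rule used, since the deviations of same-numbered libraries had correlations from -0.52 to 0.48 over 24 pairs, and at most 3 of 6 libraries correlated best with their own number. With the block the number of members called stayed at 4 over all treatments. For single members, 1291 of the alternative fits with an adjusted p in both fits gave the same call, 10 lost a call, 8 gained one, and 0 turned the direction of a called member. Most of the 1291 were members called in neither fit, so this number says little about how stable the calls were. The 10 losses all fell on the few results called in the main fits. Another 176 had no adjusted p in at least 1 of the fits and are not counted as agreeing. Across the alternatives the adjusted p of Grp over all treatments ranged from 1.95e-34 to 0.0432, that of Cck from 4.07e-16 to 0.987, that of Sst from 6.23e-09 to 0.902 and that of Tac1 from 0.00339 to 1. The highest value came from lane as a term in each of these 4. In the PTZ comparisons and the interaction no member was called under any alternative run. Depth limits Tac2, Crh and Cort, with means of 14.9, 9.93 and 27.7 normalized counts, for which adjusted p-values were often left out by the filter of DESeq2.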
